A study of Homo sapiens with 9 samples.

Results

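The Hippo pathway genes and the genes switched on by YAP and TEAD were followed in SW480 colorectal carcinoma cells and in lines grown from single cells of them. Members were chosen by symbol, with earlier results of these data known. The list held 18 pathway parts and 17 targets, 35 genes in all, and every probe set annotated to exactly 1 of these symbols was taken. That gave 113 probe sets for 34 of the 35 genes, out of 19775 genes with such a probe set on the array. NUAK2, a kinase gene of the target list, had only 1 probe set, which is shared with AKIP1, and was not measured. SCP51, a line grown from 1 cell, was classed as highly metastatic from orthotopic implantation, that is into the organ of origin, in mice, and SCP58, likewise grown from 1 cell, as poorly metastatic. Their source was the parent, SW480 cells carrying EGFP, a green fluorescent protein, which SCP51 and SCP58 inherit. All 3 groups were cultured without further treatment and were profiled on 3 arrays each, which the titles call biological replicates. Each line is 1 clone and each metastatic class 1 line, so class and clone cannot be told apart, and p-values measure only the spread between these arrays, which may be technical.

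Hippo signalling is a kinase relay that restrains tissue growth. The kinases MST1 and MST2 (genes STK4 and STK3), with their scaffold SAV1, activate the kinases LATS1 and LATS2, which work with MOB1A and MOB1B. LATS kinases phosphorylate the coactivators YAP and TAZ (genes YAP1 and WWTR1), which are then held in the cytoplasm or degraded. When the relay is off, YAP and TAZ enter the nucleus, bind the DNA-binding factors TEAD1 to TEAD4 and turn on genes such as CCN1, CCN2 and ANKRD1. In the intestine the pathway is known for its part in regeneration and tumour growth. Its main control is on phosphorylation and location of proteins, which RNA levels do not show.

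Values are linear signals, for which the median probe set of an array lay between 41.2 and 44.3. Keratin genes KRT8, KRT18 and KRT19 and EPCAM, markers of epithelium, had signals of 2554 to 7692.2 on all arrays, and CDX2, an intestinal factor, 45.5 to 58.2, close to the array median. Of the other epithelial markers CDH1 had 459 to 882 and VIL1 107 to 130, while LGALS4 was dim, at 12 to 18.4. Of the markers of other cells, 2 of 6 for fibroblasts, 2 of 4 for endothelium and 1 of 3 for leukocytes were bright enough to test. None was called in any comparison. For fibroblasts these were COL1A1, at 126 to 172 and so not below VIL1, and DCN, at 28.6 to 62. For endothelium they were VWF, at 61.7 to 88.2, and PECAM1, at 36.3 to 57.2, and for leukocytes CD3E, at 71.85 to 90.8. Among those too dim to test, PTPRC and COL3A1 stayed under 30 on every array. SCP51 replicate 1 stood apart, with correlations of 0.891 to 0.911 with the other arrays across genes, against 0.945 to 0.979 among the others. Calls of genes that involve SCP51 are therefore also given without it. Arrays measured whole cultures, so fewer expressing cells and less RNA per cell cannot be told apart.

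Promoters of 5 target genes are shown first, chosen because each holds a match to the TEAD or the AP-1 sequence. RefSeq promoter windows (build GRCh38.p14), each the 250 bases before an annotated start, were at hand for 28 of the 35 genes in 40 windows. The windows did not include TEAD1, TEAD4, STK3, CCN1, CRIM1, ARHGEF17 and ASAP1. GGAATG, the core of the TEAD site, was searched on both strands, as was TGANTCA, the site of AP-1 factors that often bind beside TEAD, and no match of one overlapped a match of the other. GGAATG lay in 6 of 15 windows of targets (40.0%), in 2 of 25 windows of pathway parts (8.0%) and in 11.9% of all 35116 windows. TGANTCA lay in 2 of 15 windows of targets (13.3%), in 2 of 25 of pathway parts (8.0%) and in 6.57% of all windows. Matches are in capitals below, and a match on the opposite strand reads CATTCC. The windows lie at chr6:131951373-131951622 on the minus strand for CCN2, chr10:90921088-90921337 on the minus strand for ANKRD1, chr1:218345086-218345335 on the plus strand for TGFB2, chr3:134374448-134374697 on the minus strand for AMOTL2 and chr1:94541760-94542009 on the minus strand for F3. CCN2 and TGFB2 were among the tested members furthest above the parent in SCP51, and ANKRD1, too dim to test, also lay above it. AMOTL2 is a target with small differences, and F3 is the target called in SCP58. Another AMOTL2 window, at chr3:134375418-134375667, held neither sequence and is not shown. Whether matches go with differences in signal was not tested. NT5E, also called below, held neither sequence in its window.
CCN2: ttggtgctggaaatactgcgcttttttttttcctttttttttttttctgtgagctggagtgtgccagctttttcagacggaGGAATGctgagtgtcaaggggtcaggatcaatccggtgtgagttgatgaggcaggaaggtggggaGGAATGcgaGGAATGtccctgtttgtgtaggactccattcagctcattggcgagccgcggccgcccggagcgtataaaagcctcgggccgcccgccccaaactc
ANKRD1: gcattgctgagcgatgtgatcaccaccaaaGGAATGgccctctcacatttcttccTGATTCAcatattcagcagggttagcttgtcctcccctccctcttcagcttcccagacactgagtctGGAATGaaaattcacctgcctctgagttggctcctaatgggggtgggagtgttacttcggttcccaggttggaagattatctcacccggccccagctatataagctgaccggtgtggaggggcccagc
TGFB2: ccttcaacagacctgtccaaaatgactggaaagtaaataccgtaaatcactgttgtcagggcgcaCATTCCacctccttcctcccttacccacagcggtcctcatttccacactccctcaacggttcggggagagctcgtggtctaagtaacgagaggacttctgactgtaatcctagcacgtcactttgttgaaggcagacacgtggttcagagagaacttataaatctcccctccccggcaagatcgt
AMOTL2: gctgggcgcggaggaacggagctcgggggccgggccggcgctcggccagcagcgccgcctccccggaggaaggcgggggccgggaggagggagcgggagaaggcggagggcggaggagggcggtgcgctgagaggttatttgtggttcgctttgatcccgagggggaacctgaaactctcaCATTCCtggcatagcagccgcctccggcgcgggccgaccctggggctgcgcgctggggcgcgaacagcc
F3: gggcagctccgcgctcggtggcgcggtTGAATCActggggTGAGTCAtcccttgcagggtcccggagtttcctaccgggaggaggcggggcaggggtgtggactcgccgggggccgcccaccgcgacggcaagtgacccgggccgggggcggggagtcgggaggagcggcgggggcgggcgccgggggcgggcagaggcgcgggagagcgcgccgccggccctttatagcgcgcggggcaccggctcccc
CCN2 held GGAATG 3 times, starting 169, 104 and 95 bases before the start, all on the strand of the gene. ANKRD1 held it at 220 and 128 bases, with 1 AP-1 match between them at 195. TGFB2 and AMOTL2 each held 1 match on the opposite strand, beginning 185 and 69 bases before the start. F3 held no GGAATG in this window but had 2 AP-1 matches, at 223 and 210 bases. The other targets with a GGAATG match were AJUBA and NUAK2, and the pathway parts were PTPN14 and YAP1.

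Over all members, 33 were bright enough to test, of which 32 lay above the array median on all 9 arrays. The calls below rest on two-sided limma p-values with Benjamini-Hochberg adjustment across the 13598 genes that passed, and need an adjusted p under 0.05. Each SE comes from the same fit. It pools the spread over all 9 arrays and is drawn toward the trend across genes, so it is not the spread of the groups compared alone. Between SCP51 and the parent, 7 of 33 members were called (21.2%), against 2.96% of all genes: 6 were higher in SCP51, against 1.38% of all genes, and 1 lower, against 1.58%. Between SCP51 and SCP58, 4 of 33 were called (12.1%), against 4.08% of all genes, with 2 higher in SCP51, against 1.48% of all genes, and 2 lower, against 2.6%. Between SCP58 and the parent, 1 of 33 was called (3.03%), against 0.14% of all genes, and it was higher in SCP58, against 0.0662% of all genes. The 3 comparisons share arrays and are not independent of each other. Because the members were chosen with earlier results of these data known, their shares beside those of all genes are descriptions.

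All 3 SCP51 arrays lay above all 3 parent arrays for 14 of 33 members (42.4%), against 9.5% of all genes, and below them for 5 (15.2%), against 18.6%. For SCP51 and SCP58 the numbers were 10 higher (30.3%), against 7.91%, and 4 lower (12.1%), against 17.2%. For SCP58 and the parent they were 14 higher (42.4%), against 9.41%, and 4 lower (12.1%), against 7.58%. The genes set beside the members, here and in the calls, were not matched to them for brightness. What this does to the shares was not tested. Over all genes the calls between SCP51 and SCP58 were 201 higher and 354 lower, a split that became 319 and 302 after quantile normalization. Between SCP51 and the parent it was 187 and 215, and 247 and 169 after quantile normalization.

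**Figure D1:**
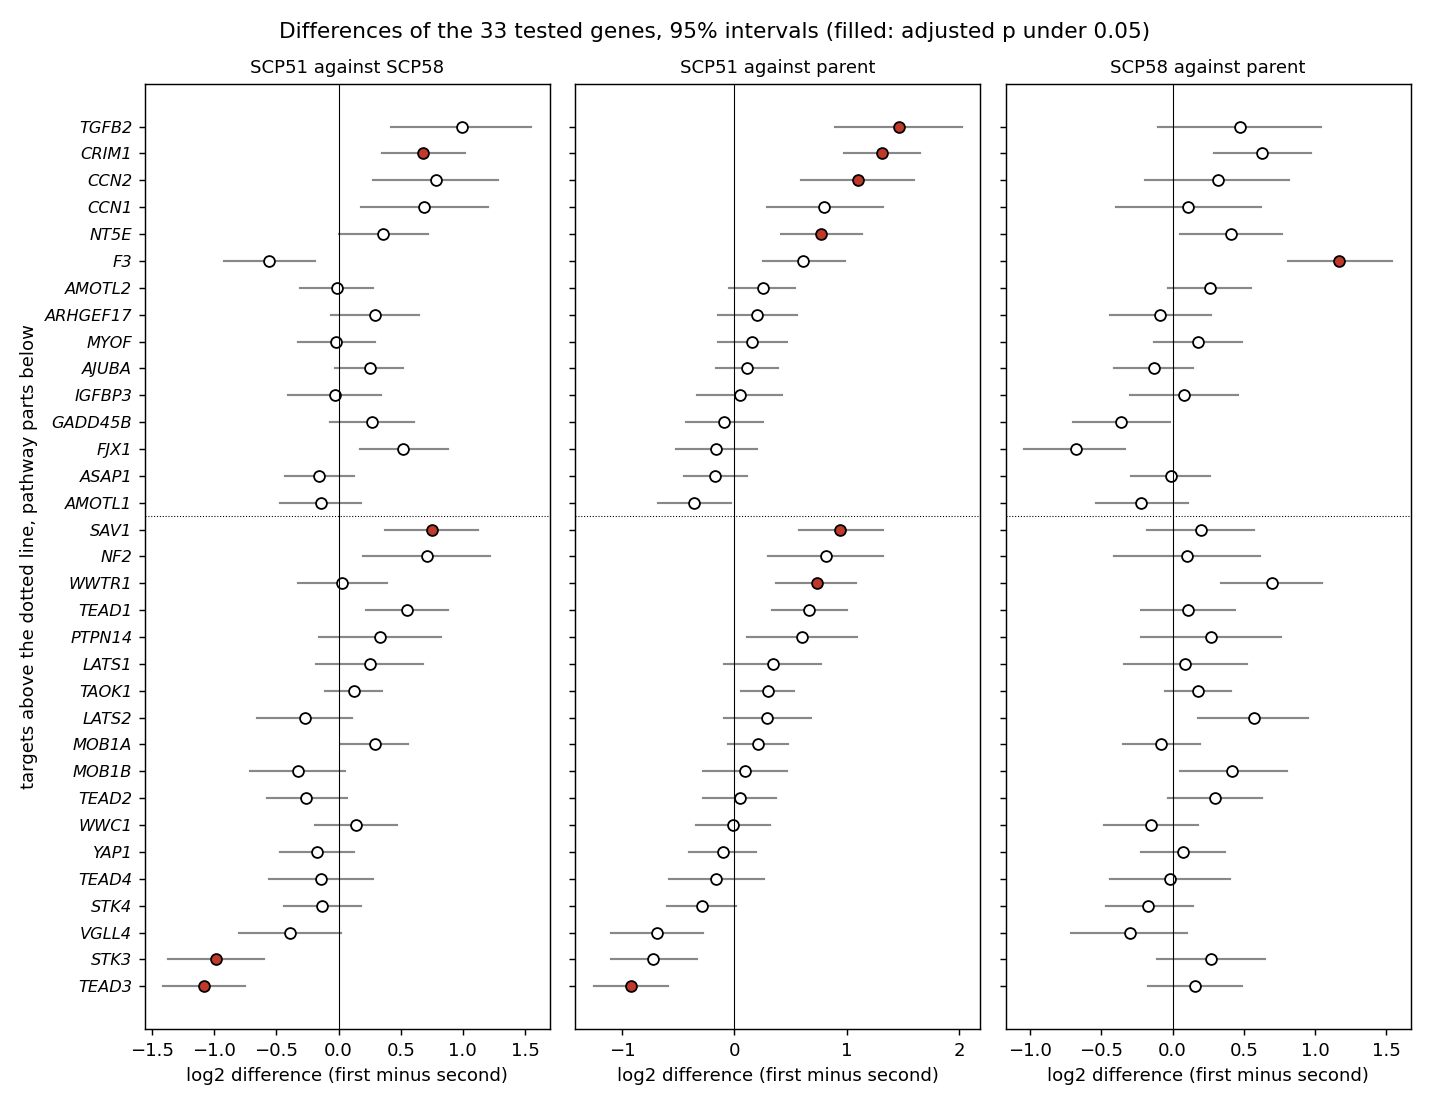
Log2 difference of each of the 33 tested genes (points) with its 95% interval from limma (bars), for SCP51 minus SCP58, SCP51 minus the parent and SCP58 minus the parent. Filled points have an adjusted p under 0.05, and each of the targets TGFB2, CRIM1 and CCN2 lies further right for SCP51 minus the parent than for SCP58 minus the parent.

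Among the targets, CRIM1, CCN2, TGFB2 and NT5E were higher in SCP51 than in the parent. These were 4 of 15 tested targets (26.7%), all 4 in the same direction, against 1.38% of all genes called higher. The median log2 difference of the 15 targets was 0.20, against -0.10 for all genes, and 12 of the 15 lay above that median of all genes. Set against SCP58, 1 of 15 was called, CRIM1 (6.67%), against 4.08% of all genes called and 1.48% called higher. The median of the targets there was 0.27, against -0.11 for all genes, with 12 of 15 above the latter. As deposited, 9 of 15 targets lay above 0 there, against 35% of all genes. After quantile normalization or centring 12 of 15 did so, where the median of all genes was -0.05 or -0.04.

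**Figure D2:**
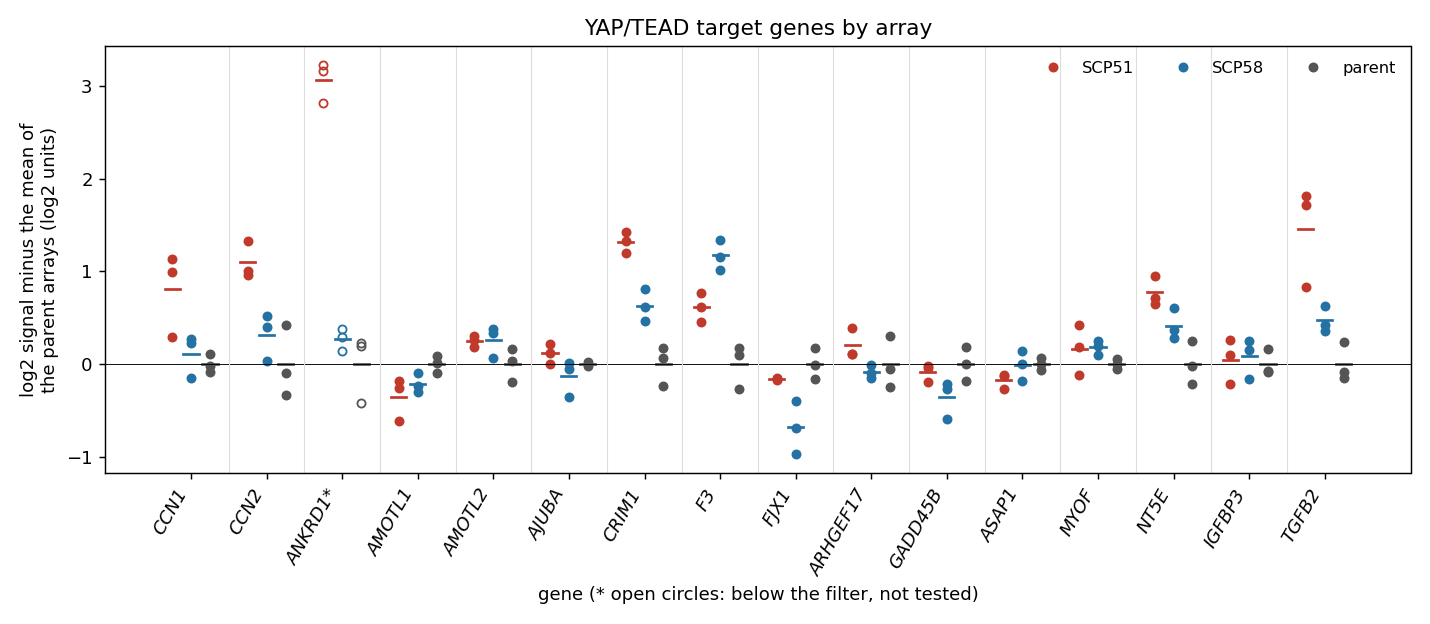
Log2 signal of the brightest probe set of each target gene on every array (points), less the mean of the parent arrays, with group means as short lines. SCP51 stands left, SCP58 in the middle and the parent right within each gene, and open circles mark ANKRD1, which was below the filter.

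CRIM1, which encodes a membrane protein that binds bone morphogenetic proteins, was the target with the smallest p against the parent among those that passed the filter. Its signals were 1016, 1187 and 1110.3 in SCP51, 677, 614 and 778 in SCP58 and 465, 376 and 499 in the parent. The groups followed each other without overlap, SCP51 highest, SCP58 between and the parent lowest. SCP51 was 2.48-fold higher than the parent, a log2 difference of 1.31 ± 0.15 (SE, n = 3 each; limma adjusted p = 0.00389, and 0.00228 without SCP51 replicate 1). It was 1.61-fold higher than SCP58, at 0.68 ± 0.15 (limma adjusted p = 0.0419). The difference of SCP58 from the parent was 0.63 ± 0.15 (limma adjusted p = 0.252, unadjusted p = 0.0024), which did not pass. The 2 CRIM1 probe sets above the array median on all 9 arrays were both called between SCP51 and the parent when tested singly, at 1.31 and 1.24. The third, at 1.44, was above the median on 4 arrays only, 3 of them SCP51, so it passed the filter through the group where it is high and is given as a description. The call against the parent held in all 19 alternatives run. That against SCP58 stood at 0.0231 without SCP51 replicate 1, but was lost without SCP51 replicates 2 (0.132) or 3 (0.0766), SCP58 replicates 1 (0.0912), 2 (0.158) or 3 (0.0725), or parent replicates 1 (0.0728) or 3 (0.0703).

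CCN2, a secreted matrix protein also called CTGF, and CCN1, its relative also called CYR61, are the targets most used as readouts of YAP. CCN2 had signals of 462, 578 and 448 in SCP51, 236, 303 and 330.2 in SCP58 and 183, 309 and 216 in the parent. Every SCP51 array was above every other array, while SCP58 and the parent overlapped. SCP51 exceeded the parent 2.14-fold, at 1.10 ± 0.22 (SE over 3 arrays per group; limma adjusted p = 0.0395, and 0.0304 without SCP51 replicate 1). Against SCP58 the difference was 0.78 ± 0.22, which was not called (limma adjusted p = 0.0879). The call against the parent was lost without SCP51 replicates 2 (0.131) or 3 (0.0525), SCP58 replicates 2 (0.0702) or 3 (0.0602), or parent replicates 1 (0.138) or 3 (0.15).

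CCN1 had signals of 612, 995 and 1104 in SCP51, 452, 604 and 585 in SCP58 and 494, 541 and 473 in the parent. SCP51 did not overlap either group, but its replicate 1 was close to the highest SCP58 array. The differences, 0.80 ± 0.22 from the parent and 0.69 ± 0.22 from SCP58 (SE, n = 3 per group), were not called (limma adjusted p = 0.107 and 0.124). Without SCP51 replicate 1 both passed, with adjusted p of 0.00598 and 0.00809. The other CCN1 probe set stood at 0.90 and 0.91.

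ANKRD1, an ankyrin repeat protein of heart muscle and a standard YAP target, was dim and did not enter the test. Its probe set had signals of 41.7, 55.5 and 53.1 in SCP51, 7.28, 6.55 and 7.75 in SCP58 and 6.82, 6.95 and 4.43 in the parent. Only SCP51 replicates 2 and 3 lay above the median of their array, where the filter asked for 3 arrays. Tested with no filter, an alternative in which all genes enter, the log2 difference of SCP51 was 3.07 ± 0.21 from the parent (limma adjusted p = 0.000427) and 2.79 ± 0.21 from SCP58 (limma adjusted p = 0.00196), and without SCP51 replicate 1 it was 3.19 and 2.92 (0.000361 and 0.000946). At signals this low the log2 difference depends on what is added before the log, and with 32 added before log2 the differences were 1.11 and 1.06. No detection call was used, so it was not tested whether the parent and SCP58 signals stand for any transcript.

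TGFB2, a secreted growth factor of the transforming growth factor family, had signals of 84.9, 168 and 156 in SCP51, 61.1, 63.6 and 73.5 in SCP58 and 56, 44.7 and 43 in the parent. The 3 groups did not overlap, and SCP51 replicate 1 was nearer to SCP58 than its sister arrays were. SCP51 was 2.74-fold higher than the parent, at 1.46 ± 0.25 (SE, n = 3 each; limma adjusted p = 0.0197, and 0.000581 without SCP51 replicate 1). Against SCP58 the difference was 0.99 ± 0.25 (limma adjusted p = 0.0655), and it passed without SCP51 replicate 1 (0.00268). The call against the parent was lost without SCP51 replicate 2 (0.0698) or parent replicates 1 (0.0548), 2 (0.0857) or 3 (0.0932). It was also lost with the mean of the probe sets (0.388), since the 1 other probe set above the filter jumped between 11.4 and 471 within SCP51, between 8.68 and 466 within SCP58 and between 3.63 and 131 within the parent.

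NT5E encodes CD73, a surface enzyme that makes adenosine. Its signals were 957, 1125 and 912 in SCP51, 751, 705 and 882 in SCP58 and 499.7, 572 and 691 in the parent. SCP58 lay between, without overlap on either side. That order depends on the probe set, since another had 177, 147 and 171 in SCP51, 222, 190 and 182 in SCP58 and 108, 150 and 157 in the parent, with SCP58 highest. SCP51 was 1.71-fold higher than the parent, at 0.77 ± 0.16 (SE, n = 3 each; limma adjusted p = 0.0422, and 0.0316 without SCP51 replicate 1). SCP51 minus SCP58 stood at 0.36 and SCP58 minus the parent at 0.41, neither called. The call was lost with the mean of the probe sets (0.119), and without SCP51 replicates 2 (0.137) or 3 (0.0507), SCP58 replicates 1 (0.0608), 2 (0.0665) or 3 (0.0565), or parent replicates 1 (0.147), 2 (0.131) or 3 (0.063).

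F3 and FJX1 had another order of groups. F3, the tissue factor that starts blood clotting, had signals of 289, 359 and 323 in SCP51, 533, 471 and 426 in SCP58 and 225, 175 and 237 in the parent. Here SCP58 was highest, SCP51 between and the parent lowest, without overlap. It was the 1 member called between SCP58 and the parent, 2.25-fold higher in SCP58, at 1.17 ± 0.16 (SE, n = 3 each; limma adjusted p = 0.0439). SCP51 differed by 0.61 ± 0.16 from the parent and by -0.56 ± 0.16 from SCP58 (limma adjusted p = 0.0892 and 0.0914). Without SCP51 replicate 1, which enters through the shared spread, the call stood at 0.0192. It was lost without SCP51 replicates 2 (0.0677) or 3 (0.0963), SCP58 replicates 1 (0.106), 2 (0.138) or 3 (0.128), or parent replicates 1 (0.22), 2 (0.0994) or 3 (0.113). FJX1, a secreted relative of the Drosophila protein four-jointed, had signals of 171, 169.9 and 169 in SCP51, 145, 97.2 and 118 in SCP58 and 214, 188 and 170.4 in the parent. SCP58 was below both others without overlap, at -0.68 ± 0.16 from the parent (limma adjusted p = 0.244), and SCP51 minus SCP58 was 0.52 ± 0.16 (limma adjusted p = 0.101), so neither passed, while array weights called both (0.0116 and 0.0363).

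The other 8 tested targets were not called in any of the 3 comparisons by the reported limma fit, and array weights called 1 of them, AMOTL2, between SCP58 and the parent (0.0308). AMOTL2 and AMOTL1, angiomotin-like proteins that bind YAP, stood at 0.25 and -0.36 for SCP51 minus the parent. AMOTL2 had signals of 1128, 1229 and 1186 in SCP51, 1042, 1252 and 1291 in SCP58 and 1016, 1111 and 869 in the parent, so SCP51 lay above the parent and overlapped SCP58. AMOTL1 had 216, 277 and 292 in SCP51, 310.4, 269 and 281 in SCP58 and 334, 312 and 353 in the parent, and here the parent lay above both lines. AJUBA, a LIM protein that inhibits LATS kinases, and MYOF, the membrane repair protein myoferlin, were bright, at 858 to 1277 and 1397 to 2038 over all arrays, and their differences lay between -0.13 and 0.25. GADD45B, a stress response gene, stood at -0.36 for SCP58 minus the parent, with no overlap of arrays (limma adjusted p = 0.541). By their brightest probe sets ARHGEF17, ASAP1, an Arf regulator on chromosome 8, and IGFBP3 lay between -0.17 and 0.29 in the 3 comparisons. The other ASAP1 probe sets above the filter stood at -0.34, 0.01 and 1.61 for SCP51 minus the parent, with none called. IGFBP3, a binding protein of insulin-like growth factors, was dim, at 44.7 to 62.3 for the probe set read here. Its other probe set lay below the filter, with 43, 40.2 and 39.8 in SCP51, 26, 19 and 20.9 in SCP58 and 22.8, 26.2 and 26 in the parent, where SCP51 was above both others without overlap.

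Of the 18 pathway parts, SAV1 and WWTR1 were higher and TEAD3 was lower in SCP51 than in the parent (16.7% called, against 2.96% of all genes). Against SCP58, SAV1 was higher and TEAD3 and STK3 were lower in SCP51 (16.7%, against 4.08%). None was called between SCP58 and the parent, where 3 of 18 had an unadjusted p under 0.05, against 8.6% of all genes, and array weights called WWTR1 and LATS2, 2 of 18 where that setting called 9.94% of all genes. The medians of the 18 parts were 0.15 for SCP51 minus the parent and -0.05 for SCP51 minus SCP58, against -0.10 and -0.11 for all genes.

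**Figure D3:**
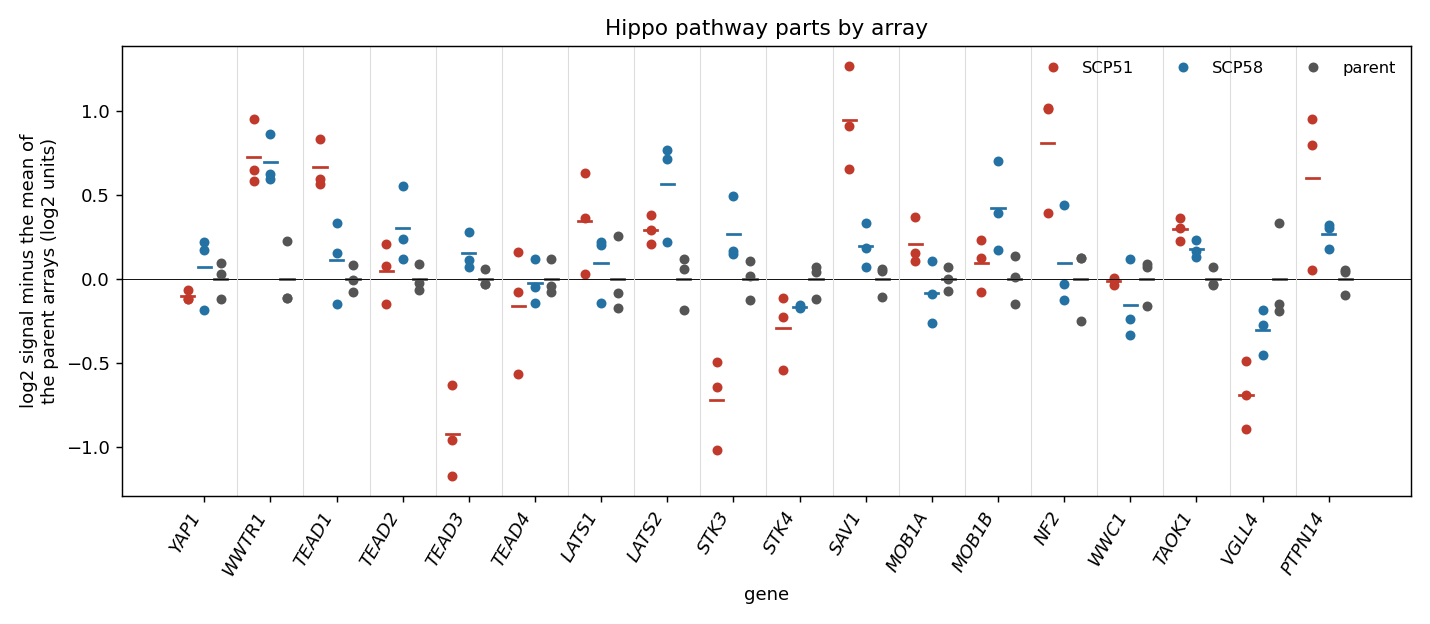
Log2 signal of the brightest probe set of each pathway part on every array (points), less the mean of the parent arrays, with group means as short lines, SCP51 left, SCP58 in the middle and the parent right. SAV1 lies above and TEAD3 and STK3 lie below the other groups on all 3 SCP51 arrays, while WWTR1 lies above the parent on all arrays of SCP51 and SCP58.

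YAP1 had signals of 951, 951 and 986 in SCP51, 908, 1165 and 1203 in SCP58 and 1102, 949 and 1052 in the parent. All groups overlapped in this brightest probe set. The 95% interval of the log2 difference between SCP51 and the parent ran from -0.40 to 0.19 there. A dimmer probe set had 141, 157 and 162 in SCP51 and 206, 170 and 177 in the parent. In it SCP51 was lower without overlap, at -0.26 ± 0.14 (SE), and was not called (limma adjusted p = 0.358). The third stood at -0.84 ± 0.59, and its SCP51 arrays overlapped those of the parent. WWTR1, which encodes TAZ, had signals of 627, 510.3 and 486 in SCP51, 501, 491 and 592 in SCP58 and 300.1, 301 and 379.8 in the parent. Both clonal lines were above the parent on every array and overlapped each other. SCP51 was 1.66-fold higher than the parent, at 0.73 ± 0.16 (SE, n = 3 each; limma adjusted p = 0.0489), and SCP58 was at 0.70 ± 0.16 (limma adjusted p = 0.237). SCP51 minus SCP58 was 0.03, with a 95% interval from -0.33 to 0.39. The WWTR1 call was lost when any 1 of the 9 arrays was left out, with adjusted p of 0.0525, 0.122 and 0.0548 without SCP51 replicates 1, 2 and 3, 0.0687, 0.0843 and 0.0681 without those of SCP58, and 0.165, 0.155 and 0.0765 without those of the parent.

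Of the 4 TEAD factors, the DNA-binding partners of YAP and TAZ, 1 was called. TEAD3 had signals of 103, 71.2 and 82.2 in SCP51, 195, 173 and 168 in SCP58 and 157, 157 and 167 in the parent. SCP51 was below both groups on every array. The gene was 2.11-fold lower than in SCP58, at -1.08 ± 0.14 (SE, n = 3 each; limma adjusted p = 0.0085), and 1.89-fold lower than in the parent, at -0.92 ± 0.14 (limma adjusted p = 0.0143). Without SCP51 replicate 1 these p were 0.00197 and 0.00271. The call against SCP58 held without any 1 array, and that against the parent was lost without parent replicates 1 (0.0626), 2 (0.0586) or 3 (0.074).

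TEAD1 had signals of 1106, 1306 and 1084 in SCP51, 816, 659.9 and 922 in SCP58 and 776, 695 and 729.6 in the parent, and SCP51 was above both others on every array. The differences of 0.66 ± 0.15 from the parent and 0.55 ± 0.15 from SCP58 (SE, n = 3 per group) did not pass (limma adjusted p = 0.0519 and 0.0745). The first passed without SCP51 replicate 1 (0.0377) or SCP58 replicate 2 (0.0436). TEAD2 had signals of 67.3 to 86.1 in SCP51, 81 to 109 in SCP58 and 71 to 79.2 in the parent, and TEAD4 157 to 259, 210.1 to 252 and 219.9 to 252 in the same order of groups. Neither was called, and in both genes SCP51 overlapped the other 2 groups.

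In the kinase core, the scaffold SAV1 was higher and the kinase STK3 was lower in SCP51. SAV1 had signals of 755, 1152 and 903 in SCP51, 504, 545 and 604 in SCP58 and 494, 500.1 and 445 in the parent. SCP51 was above all other arrays. It was 1.92-fold higher than the parent, at 0.94 ± 0.16 (SE, n = 3 each; limma adjusted p = 0.0215, and 0.00447 without SCP51 replicate 1), and 1.68-fold higher than SCP58, at 0.75 ± 0.16 (limma adjusted p = 0.0449, and 0.0086). Its 5 probe sets all stood above 0 in both comparisons, at 0.51 to 1.32 against the parent and 0.33 to 1.79 against SCP58. The call against the parent was lost without SCP51 replicate 2 (0.0569) or parent replicates 1 (0.0789), 2 (0.0731) or 3 (0.102). That against SCP58 was lost without SCP51 replicates 2 (0.113) or 3 (0.0726), SCP58 replicates 1 (0.105), 2 (0.151) or 3 (0.092), or parent replicates 1 (0.078), 2 (0.0676) or 3 (0.0821). With the mean of its probe sets SAV1 was not called in either (0.0897 and 0.0627).

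STK3, the MST2 kinase, had signals of 181, 259 and 234 in SCP51, 410.5, 405 and 515 in SCP58 and 335, 393 and 371 in the parent. SCP51 was lowest without overlap, 1.98-fold below SCP58, at -0.99 ± 0.17 (SE, n = 3 each; limma adjusted p = 0.0199, and 0.0124 without SCP51 replicate 1). Relative to the parent it stood at -0.72 ± 0.17, which was not called (limma adjusted p = 0.0643). The call against SCP58 was lost without SCP58 replicates 2 (0.0665) or 3 (0.0694) and with the mean of both probe sets (0.0566), the other of which stood at -0.14 ± 0.12. The gene lies on chromosome 8, where 15.6% of 473 tested genes were called lower in SCP51 than in SCP58, against 2.6% of all genes, and the median log2 difference was -0.26, against -0.10 for genes of other chromosomes. ASAP1, the other member on that chromosome, stood at -0.16 by its brightest probe set (limma adjusted p = 0.491). Its other probe sets above the filter stood at -0.28, 0.05 and 1.79, the last with 1000, 203 and 837 in SCP51, so its sign depends on the probe set. Whether the lower STK3 signal belongs to the lower signals of chromosome 8 was not tested.

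The remaining kinase genes were not called. STK4, the MST1 kinase, had signals of 396 to 532 in SCP51, 511 to 518 in SCP58 and 531 to 606 in the parent, so SCP51 overlapped the parent by 1 array, and LATS1 had 127 to 192, 113 to 145 and 110.4 to 148. LATS2, a kinase that is itself a YAP target, had 526, 592 and 558 in SCP51, 530.1, 774 and 746 in SCP58 and 401, 495 and 475 in the parent. Both clonal lines were above the parent, SCP58 by 0.57 ± 0.17 (SE, n = 3 each; limma adjusted p = 0.354). Of its 4 probe sets, 1 was called lower in SCP51 than in SCP58 when tested singly, at -0.50 ± 0.10 (limma adjusted p = 0.041 over all probe sets, and 0.0425 without SCP51 replicate 1), where 3.35% of all probe sets were called. MOB1A and MOB1B, the LATS cofactors, differed by 0.29 or less in size in MOB1A, while MOB1B stood at -0.33 for SCP51 minus SCP58 and at 0.42 for SCP58 minus the parent, there without overlap of arrays, with none called.

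None of the 5 upstream and binding regulators was called by limma, with 4 of 5 at an unadjusted p under 0.05 between SCP51 and the parent, where 19.6% of all genes were, 1 between SCP51 and SCP58, where 21.3% were, and 0 between SCP58 and the parent. Array weights called NF2 and PTPN14 in both comparisons of SCP51, and TAOK1 against the parent, a setting that called 11.2% of all genes against SCP58 and 9.97% against the parent. NF2, or merlin, which activates LATS kinases at the membrane, had signals of 769.6, 1186 and 1185 in SCP51, 798, 537 and 575 in SCP58 and 640.2, 493 and 639 in the parent. SCP51 replicate 1 was far below its sister arrays but above the parent. The log2 differences of SCP51 were 0.81 ± 0.22 from the parent and 0.71 ± 0.22 from SCP58 (SE, n = 3 each; limma adjusted p = 0.105 and 0.115), and both passed without SCP51 replicate 1 (0.0186 and 0.0214). PTPN14, a phosphatase that binds YAP and is also its target, had signals of 716, 1204 and 1338 in SCP51, 853, 784 and 865 in SCP58 and 717, 648 and 712 in the parent. It showed the same pattern of a low SCP51 replicate 1, with 0.60 ± 0.21 from the parent and 0.33 ± 0.21 from SCP58 (limma adjusted p = 0.181 and 0.413), and 0.00335 and 0.0129 without that array. One of its 4 probe sets was called singly against the parent, at 0.94 ± 0.18 (limma adjusted p = 0.0372, and 0.00194 without SCP51 replicate 1), where 1.89% of all probe sets were called.

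VGLL4, which competes with YAP for TEAD, had signals of 205, 272 and 236 in SCP51, 278, 336 and 316 in SCP58 and 334, 481 and 344 in the parent. SCP51 was below both others without overlap, at -0.69 ± 0.18 from the parent and -0.39 ± 0.18 from SCP58 (SE, n = 3 each; limma adjusted p = 0.086 and 0.256). TAOK1, a kinase upstream of MST, had 643, 676 and 705 in SCP51, 617, 645 and 602 in SCP58 and 576, 537 and 535 in the parent, where both clonal lines lay above the parent without a call. WWC1, or KIBRA, overlapped in all comparisons by its brightest probe set, and its 95% interval for SCP51 minus the parent ran from -0.34 to 0.32. Another probe set had 49.3, 87.9 and 83.3 in SCP51, 90.2, 64 and 74.5 in SCP58 and 115, 103 and 102 in the parent. There both lines lay below the parent without overlap, at -0.58 and -0.50, without a call (limma adjusted p = 0.238 and 0.617). Its remaining probe sets above the filter overlapped.

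Each gene was read above by its brightest probe set. Of 113 probe sets, 94 passed the filter, and 24 members had more than 1 of these. For SCP51 minus the parent all probe sets of a member had the same sign in 16 of the 24, and for SCP51 minus SCP58 in 9. Tested singly, 7 probe sets of members were called higher and 1 lower in SCP51 than in the parent, where 0.929% and 0.963% of all probe sets were. Against SCP58, 5 were called higher and 3 lower in SCP51, where 1.52% and 1.83% of all probe sets were. Between SCP58 and the parent limma called 0 of the 94, where 0.0514% of all probe sets were called higher and 0.0823% lower. Of the 7 that were higher in SCP51 than in the parent, CRIM1 held 3, including the dim one described above, and SAV1 2. Probe sets of 1 gene share its RNA and are not replicates.

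**Figure D4:**
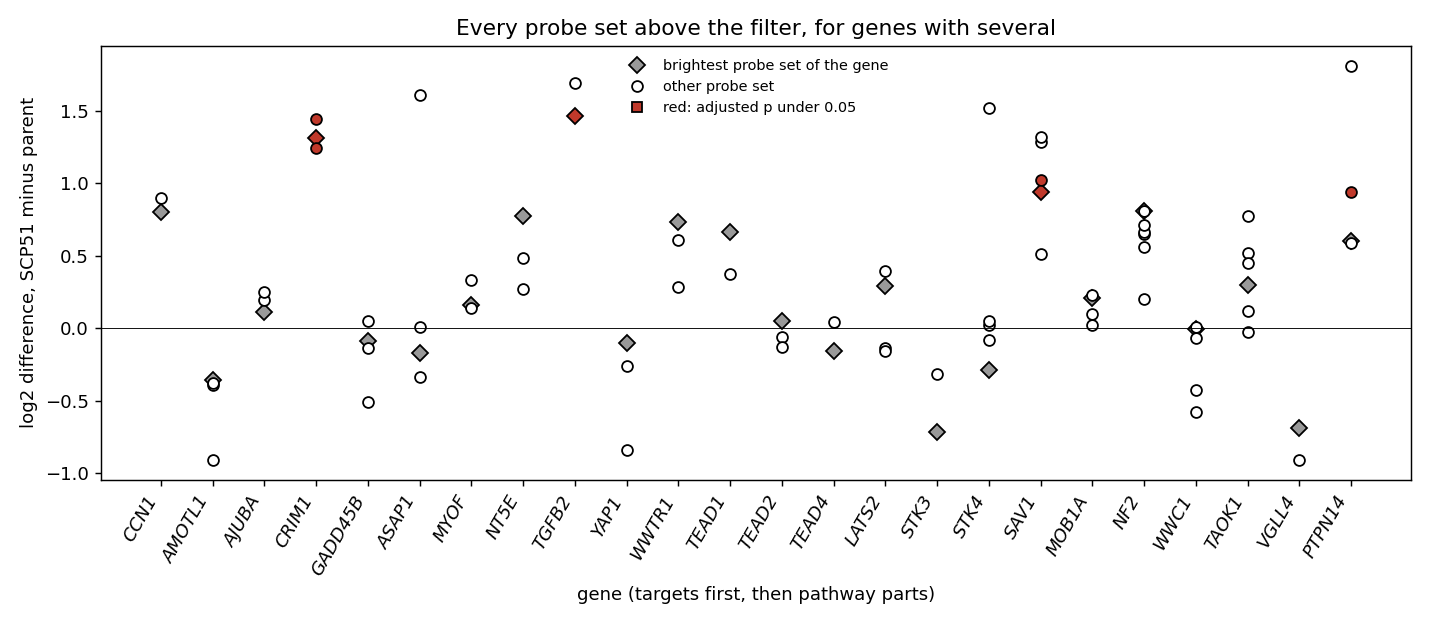
Log2 difference of SCP51 minus the parent for every probe set above the filter, for the 24 genes that have several. Diamonds mark the brightest probe set of a gene and red marks an adjusted p under 0.05, and the 3 probe sets of CRIM1 lie between 1.24 and 1.44, while those of ASAP1 and STK4 fall on both sides of 0.

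Other genes of the pathway, none of them members, were read from a list of 39, of which 36 had a probe set and 30 were tested. This list, and those of further targets and AP-1 subunits below, were also chosen with earlier results of these data known. Of the 30 tested, 1 was called higher and 2 lower in SCP51 than in SCP58 (10%), against 4.08% of all genes. Against the parent 1 was higher and 1 lower in SCP51 (6.67%), where 2.96% of all genes were called. FAT1, an atypical cadherin, was 1.44-fold higher in SCP51 than in the parent and 1.43-fold higher than in SCP58. Its signals were 3587, 4417 and 4151 in SCP51, 2623, 2720.4 and 3147 in SCP58 and 2786, 2688 and 2913 in the parent (limma adjusted p = 0.0311 and 0.0305, and 0.00578 and 0.00548 without SCP51 replicate 1). The FAT1 calls were lost against the parent without SCP51 replicates 2 (0.109) or 3 (0.0601), SCP58 replicate 2 (0.058) or parent replicates 1 (0.113), 2 (0.117) or 3 (0.0946), and against SCP58 without SCP51 replicates 2 (0.104) or 3 (0.0595), SCP58 replicates 1 (0.0784) or 2 (0.124), or parent replicates 1 (0.0583) or 3 (0.061).

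MAP4K4, a kinase that can act on LATS beside MST, had signals of 117, 194 and 162 in SCP51, 396, 352 and 423 in SCP58 and 313, 377 and 327 in the parent. SCP51 was lowest on every array, at -1.33 ± 0.19 from SCP58 and -1.13 ± 0.19 from the parent (SE, n = 3 each; limma adjusted p = 0.00911 and 0.0186). Without SCP51 replicate 1 they were -1.13 and -0.93 for the same probe set (limma adjusted p = 0.00446 and 0.0104). Leaving that array out also made another probe set the brightest, and that one stood at -0.30 and -0.71 (0.334 and 0.0568), so the calls depend on the probe set. The call against the parent was lost without parent replicates 1 (0.0651), 2 (0.0804) or 3 (0.0754). STRN, or striatin, part of a phosphatase complex that opposes MST kinases, stood at -0.97 ± 0.20 for SCP51 minus SCP58 (limma adjusted p = 0.0371, and 0.0108 without SCP51 replicate 1). That call was lost without SCP51 replicates 2 (0.123) or 3 (0.0724), SCP58 replicates 2 (0.13) or 3 (0.1), or parent replicates 1 (0.0646), 2 (0.055) or 3 (0.0752).

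Of 15 further YAP and TEAD targets, 13 had a probe set and 9 were tested, with 1 called, THBS1, in both comparisons of SCP51 (11.1%, against 2.96% of all genes for the parent and 4.08% for SCP58). THBS1, a secreted matrix protein, had signals of 1064, 1979 and 1544 in SCP51, 479, 339.6 and 498 in SCP58 and 289, 213 and 274 in the parent. The order of groups was that of CRIM1, without overlap. SCP51 was 5.78-fold higher than the parent, at 2.53 ± 0.25 (SE, n = 3 each; limma adjusted p = 0.00236), and 3.42-fold higher than SCP58, at 1.78 ± 0.25 (limma adjusted p = 0.00902). Both calls held in all 19 alternatives run, and without SCP51 replicate 1 the p were 0.000345 and 0.00197. BIRC5, or survivin, an inhibitor of cell death, and GADD45A, a stress response gene, were the brightest of the others and stood at 0.09 and -0.12 for SCP51 minus the parent, with neither called. All 7 AP-1 subunits were tested, and limma called none in any comparison, with 1 of 7 at an unadjusted p under 0.05 in each comparison of SCP51, where 19.6% of all genes were for the parent and 21.3% for SCP58, and 0 of 7 between SCP58 and the parent. The brightest, JUND and JUN, stood at -0.51 and -0.17 for SCP51 minus the parent. JUND had signals of 1463, 701 and 1171 in SCP51 and 1058, 2347 and 1382 in the parent. JUN had 438, 484 and 591 in SCP51 and 414, 827 and 518 in the parent. With arrays of a group this far apart, the lack of calls does not show equal levels.

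**Figure D5:**
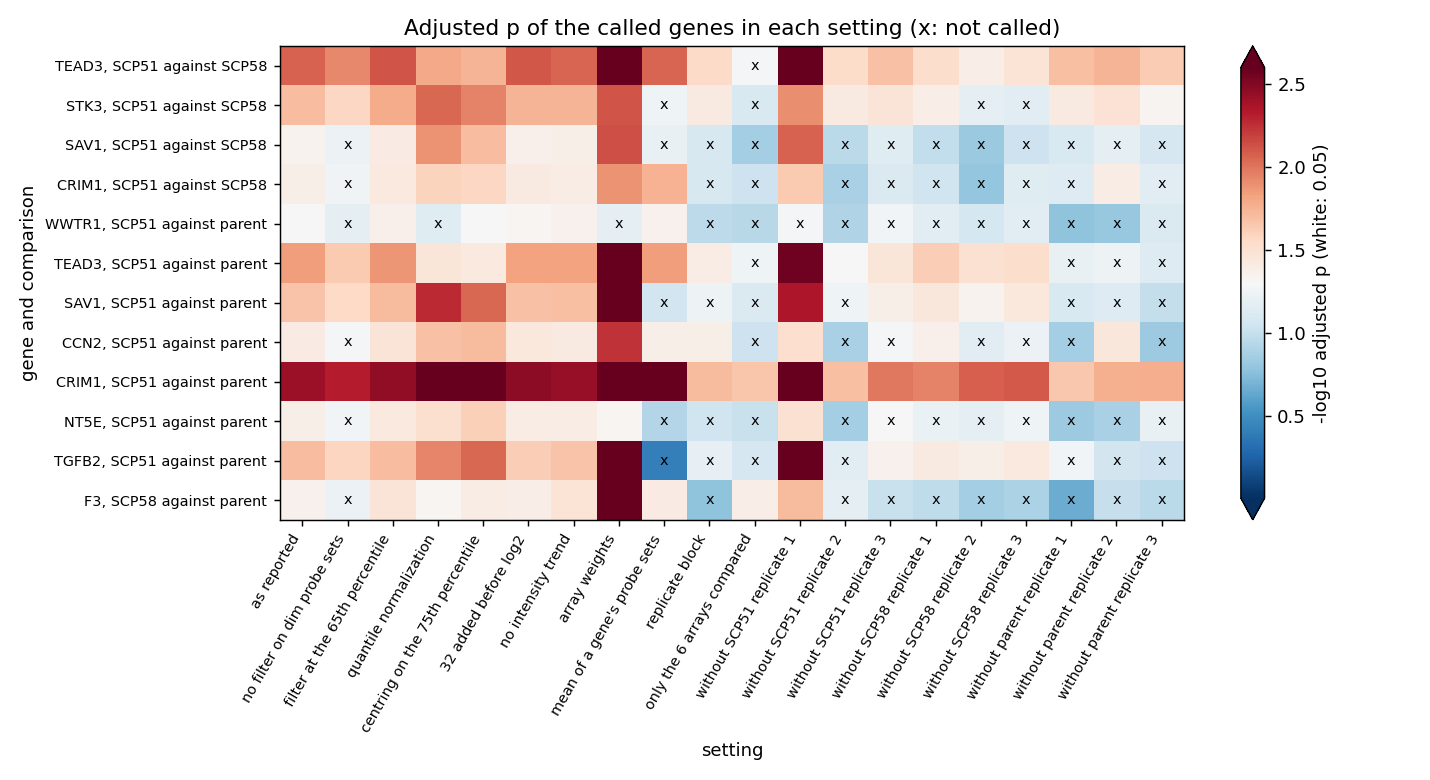
Adjusted p of the 12 member calls under the reported setting and each of the 19 alternatives, on a scale of -log10 with white at 0.05. Crosses mark settings in which the call was lost: CRIM1 against the parent has none, TEAD3 against SCP58 has 1 and WWTR1 has 14.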

How the data were processed

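Total RNA was labelled with biotin and hybridised to Affymetrix arrays, per the labels' protocols. The authors deposited 1 linear intensity per probe set and array, and the submitters' processing notes name GCOS 1.4. How GCOS scaled, corrected and summarised the probes is not given in the sources at hand. Intensities were raised to a floor of 1 and put on the log2 scale without rescaling. Of 54675 probe sets, 62 controls were left out, and 29166 lay above their array median on at least 3 of 9 arrays. Symbols were updated through Entrez identifiers in a RefSeq table (GRCh38.p14, 99.9% matched). A gene was read by its brightest probe set (mean log2), which gave 13598 genes.

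limma 3.58.1 in R 4.3.3 fitted 1 mean per group to all 9 arrays, with variances following an intensity trend. Adjusted p printed for genes come from that fit, unless an alternative or a left-out array is named with them. The small number of arrays limits the precision. The fit was tested on simulated arrays, whose outcome is not given here and supports none of the calls. The members, lists and tests were chosen with earlier results of these data known. All members were to be named, and of the other lists any called gene and up to 2 of the brightest. The alternatives are given in the closing section, and those for FAT1, MAP4K4, STRN and THBS1, and the left-out values of single probe sets and ANKRD1, were added after seeing the data. Arrays with the same replicate number did not deviate together (correlations -0.22 to 0.13 over 9 pairs), so the number was not used as a block in the reported fit. Figures were drawn with matplotlib 3.10.9.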

Additional observations from a re-analysis of the deposited data

Results flagged for a closer look

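ANKRD1 was left out of the test by the filter on dim probe sets, yet its mean signal in SCP51 was 50.1, against 6.06 in the parent, with no overlap of arrays. A further TGFB2 probe set below the filter had a mean signal of 29.4 in SCP51, against 13.0 in the parent, also without overlap. These are the probe sets of members outside the test whose arrays of a line all lay above all parent arrays with a log2 difference of at least 1. Further probe sets below the filter had SCP51 above the parent without overlap by less, among them those of IGFBP3 (0.71), TGFB2 (0.75) and STK4 (0.50). In those of AJUBA (-0.37) and WWC1 (-0.32) SCP51 lay below the parent without overlap, while another dim WWC1 probe set stood above it (0.27).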

How the results depend on the processing

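For SCP51 against SCP58, where 4 members were called, array weights gave 11, averaging the probe sets of each gene 2, the replicate block 2 and a fit to just the 6 arrays compared 0 (limma with all 9 arrays had 12 at an unadjusted p under 0.05). Leaving out 1 array gave 1 to 8, while all genes called ran from 137 to 1189. For SCP51 against the parent, where 7 were called, array weights gave 13, the replicate block 3 and the fit to 6 arrays 1, with 1 to 10 when 1 array was left out and 122 to 724 genes in all. For SCP58 against the parent, where 1 was called, array weights gave 7, and no filter on dim probe sets, the replicate block and each probe set by itself gave 0 (8 of 33 at an unadjusted p under 0.05 in the limma fit), with 0 to 1 when 1 array was left out and 0 to 75 genes in all. Over all genes, array weights called 1527, 1356 and 1351 in these comparisons, against 555, 402 and 19, the replicate block 210, 167 and 6, and the fit to 6 arrays 134, 151 and 31. The averaged probe sets called 404, 297 and 22. The fit to 6 arrays has fewer degrees of freedom; for the other settings the cause was not tested. Quantile normalization, a stricter filter (65th percentile), no intensity trend, 32 added before log2 and centring on the 75th percentile kept the counts within 1.5 times. No alternative reversed a called value. The members called still changed. Quantile normalization lost WWTR1 against the parent (limma adjusted p = 0.0722) and added TEAD1, STK3 and CCN1, and against SCP58 it added CCN1 and TGFB2. No filter on dim probe sets lost WWTR1 (0.065), CCN2 (0.0532) and NT5E (0.0546) against the parent. Against SCP58 it lost SAV1 (0.0589) and CRIM1 (0.0561), and it called ANKRD1 in both comparisons of SCP51. Signs of members not called turned in 26, 13 and 14 of 626 values each. No member changed its brightest probe set. Dim probe sets such as those of ANKRD1 and IGFBP3 limit what can be read from their signals.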

Other observations

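Of the 113 probe sets of the members, 7 spread at least 4-fold within a group, 6 of which passed the filter. They belong to YAP1, STK4, SAV1, TAOK1, ASAP1, NT5E and TGFB2, and none is the brightest of its gene. A YAP1 probe set read 129, 776 and 646 in SCP51, 690, 672 and 802 in SCP58 and 813, 549 and 823 in the parent. Among other pathway genes, VGLL3 had 4892, 4545 and 16.1 in SCP51, 4397, 4464 and 4406 in SCP58 and 4963, 14.3 and 4833 in the parent, so that 1 array each of SCP51 and the parent fell far below the rest. VGLL3 was picked out after its values were seen.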
